A study of Mus musculus with 32 samples.

Results

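Conventional CD4 T cells (Tconv) of the liver were compared with Tconv of the spleen, both from mice given carbon tetrachloride (CCl4), a solvent that is toxic to hepatocytes and is used to injure and scar the liver. The libraries were chosen by tissue, cell type and treatment as labelled: 5 of liver and 5 of spleen, which is 10 of the 32 libraries of the series. The series, whose title concerns amphiregulin from regulatory T cells (Treg) in liver fibrosis, holds RNA sequencing of Tconv and Treg from both organs, with and without CCl4. All mice were male C57BL/6 animals carrying Foxp3GFP, a reporter that makes Treg fluoresce. Tconv were sorted by flow cytometry as TCRb+CD4+Foxp3- and Treg as TCRb+CD4+Foxp3+. For comparison, liver and spleen Tconv of control mice (3 libraries each) and liver and spleen Treg after CCl4 (5 libraries each) were used. The sources used here give no dose or schedule of CCl4 and no age. They also do not say whether the libraries of a group came from separate mice, so p-values measure only the spread between these samples, which may be technical.

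Most CD4 T cells circulate between blood, lymph and lymphoid organs. They are held on that route by the chemokine receptor CCR7 and the sphingosine phosphate receptor S1PR1, and by transcription factors such as KLF2 and TCF-1 that maintain the naive and memory-like state. A minority settle in tissues after activation, lose the receptors for exit and use other chemokine receptors and integrins for retention; liver-resident T cells are known for CXCR6. A Foxp3- CD4 gate takes in naive, effector, memory and resident cells together. In RNA from sorted cells in bulk, fewer cells of a type and less RNA per cell cannot be told apart, so each level below is an average over whatever cells the gate held.

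The 5 liver libraries held 30377194 to 34768436 estimated counts and the 5 spleen libraries 28348107 to 45477473. Correlations of log2 CPM (TMM-normalized counts relative to library size) were 0.970 to 0.984 between liver libraries, 0.976 to 0.986 between spleen libraries and 0.859 to 0.912 between a liver and a spleen library. Liver library 1 had the lowest mean correlation with the others of its tissue, 0.973. Of 15 genes of CD4 T cell identity, 1 was higher in liver, 11 were lower and 3 were not called, with a median log2 fold change of -0.23. Cd4 itself was measured at 774, 918, 872, 989 and 919.8 CPM in liver libraries 1 to 5 and 1066, 976, 959, 1107 and 938 CPM in spleen libraries 1 to 5. It overlapped between the tissues and was slightly lower in liver (-0.17, SE 0.06, adjusted p = 0.0169), as was Cd3e (-0.23, SE 0.07, adjusted p = 0.00533). Neither call held when only genes averaging 5 CPM or more were scaled (adjusted p = 0.666 and 0.275; 7 of the 15 were then lower), which moved all differences by a median of 0.14, and Cd4 was also not called without liver library 1 (adjusted p = 0.0749) or spleen library 4 (0.0634). Foxp3, the gene of the sort gate, was at 0.681, 0.837, 1.02, 1.01 and 1.34 CPM in liver and 2.03, 1.68, 1.59, 1.34 and 2.39 CPM in spleen. It was low in both tissues and somewhat lower in liver (-0.91, SE 0.20, adjusted p = 5.45e-04). Treg after CCl4 averaged 1049.7 ± 55.5 CPM of Foxp3 in liver and 1061 ± 72.5 CPM in spleen (SD, n = 5).

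Nearly as many genes were called different between liver and spleen Tconv as were not. Of 17159 genes tested, 4052 were called higher in liver (23.6%) and 4266 lower (24.9%), together 48.5%, by edgeR's quasi-likelihood test at a Benjamini-Hochberg adjusted p under 0.05. The larger differences were mostly rises: 2393 called genes were at least 2-fold higher in liver and 432 at least 2-fold lower. Values of the 5 liver and 5 spleen libraries did not overlap for 33.1% of the genes tested (15.3% higher and 17.8% lower in liver). The median log2 fold change of all genes tested was 0.04. All fold changes below are liver over spleen on the log2 scale, and each list of genes is given as counts to be read against these shares, since no list was itself tested.

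**Figure D1:**
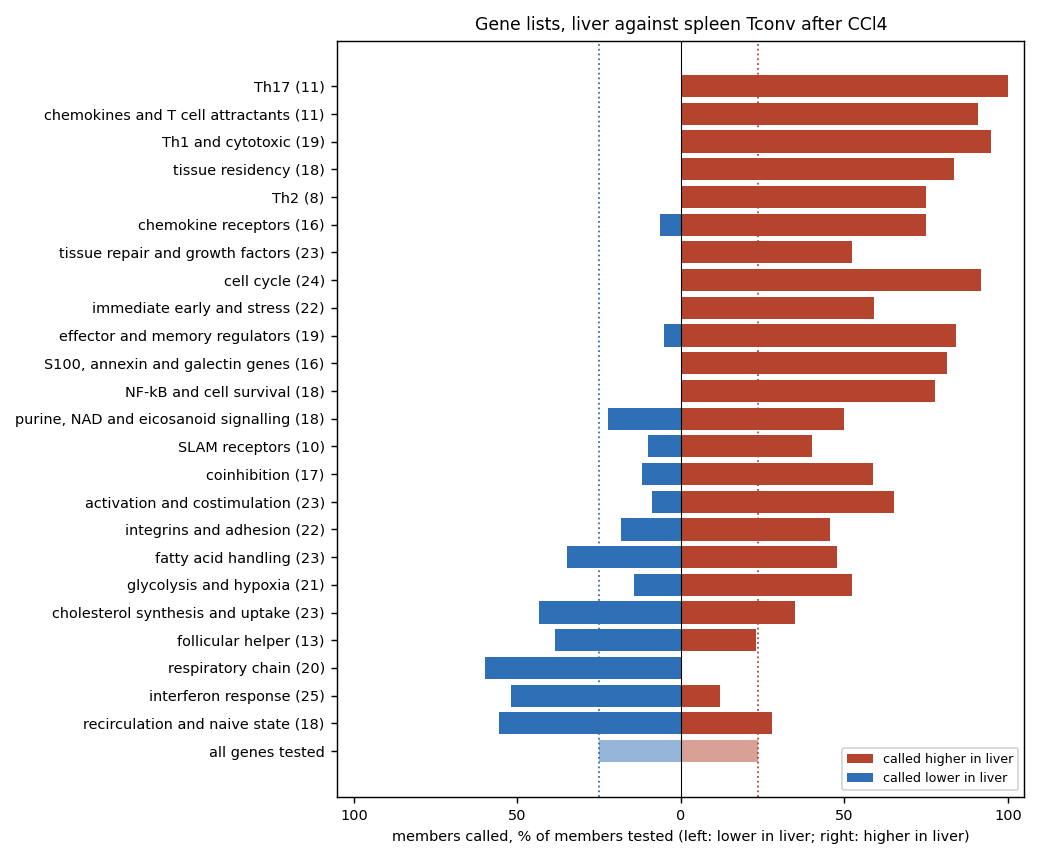
Share of each gene list called higher (right, red) or lower (left, blue) in liver than in spleen Tconv after CCl4, in percent of members tested, with the number tested in brackets. Lists run by median log2 fold change, and the dotted lines mark the 23.6% and 24.9% of all genes tested that were called higher and lower. All 11 Th17 members were called higher, and 12 of 20 respiratory chain members were called lower with none higher.

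The recirculation and naive state list did not move as a block. Of 18 members tested, 5 were higher in liver, 10 were lower and 3 were not called, with a median log2 fold change of -0.52. Among the rises were exit receptors and the transcription factor Klf2, which activates S1pr1 in T cells. Klf2 was at 1285, 1670.2, 1759, 1555 and 1497 CPM across liver libraries 1 to 5 and 544, 616, 566, 577 and 635 CPM across the spleen libraries. Its lowest liver value was 2.02 times its highest spleen value (1.40, SE 0.08, adjusted p = 5.37e-14). S1pr1, which lets T cells leave tissue toward blood and lymph, was at 1268, 1767, 1969, 1638 and 1489 CPM in the liver libraries against 799.6, 854, 832, 879.6 and 829 CPM in the spleen libraries, again with no overlap (0.96, SE 0.10, adjusted p = 1.30e-08). Ccr7, which guides T cells into lymph nodes, was at 1363, 2609, 2639, 1759 and 1505 CPM in the liver libraries against 1133, 1146, 1022, 1096 and 1153 CPM in the spleen libraries. Liver libraries 2 and 3 stood highest and libraries 1 and 5 closest to the spleen level (0.83, SE 0.15, adjusted p = 4.89e-05). Il7r, the receptor of the survival cytokine interleukin 7, was higher as well, at 594 to 923 CPM in liver and 381 to 452 CPM in spleen (0.81, SE 0.12, adjusted p = 1.68e-06), and Klf3 was higher by a small margin with overlapping values (0.30, SE 0.12, adjusted p = 0.0351). The Klf3 call was lost without any 1 of liver libraries 2 and 3 and spleen libraries 1, 3 and 5 (adjusted p = 0.0512 to 0.156).

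The falls in the same list included naive-state transcription factors. Tcf7, the gene of TCF-1, was at 1286, 1702, 1782, 1581 and 1436 CPM in liver and 2295, 2527, 2423, 2656 and 2588 CPM in spleen, with liver library 1 lowest of the 10 (-0.68, SE 0.08, adjusted p = 2.90e-08). Foxo1, which drives Klf2 in naive T cells, was at 366 to 426 CPM in liver and 544 to 709 CPM in spleen (-0.73, SE 0.07, adjusted p = 8.61e-10). Igfbp4, an insulin-like growth factor binding protein common in naive T cells, was lower (-0.84, SE 0.16, adjusted p = 6.73e-05), and so were Dapl1 (-1.30, SE 0.19, adjusted p = 2.17e-06), Cnr2, a cannabinoid receptor (-1.34, SE 0.21, adjusted p = 7.40e-06), and Slc12a7, a potassium chloride transporter (-0.77, SE 0.12, adjusted p = 3.56e-06). Lef1, the partner of TCF-1, fell by 0.35 (SE 0.12, adjusted p = 0.0165) with overlapping values, and was not called without liver library 1 (adjusted p = 0.0698) or liver library 5 (0.0615). Satb1, a chromatin organiser, and Foxp1, which keeps T cells quiescent, were not called, at log2 fold changes of 0.22 (adjusted p = 0.157) and -0.15 (adjusted p = 0.245). Klf2 and S1pr1 were thus higher in the same libraries in which Tcf7 and Foxo1 were lower.

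The residency list moved in 1 direction. Of 18 members tested, 15 were higher in liver, 0 lower and 3 not called, with a median log2 fold change of 1.90. Cxcr6, the receptor for CXCL16 on liver sinusoids, was at 712, 314, 286, 442 and 549 CPM across liver libraries 1 to 5 and 129, 45.3, 62.1, 86.2 and 65.5 CPM across the spleen libraries. The lowest liver library was 2.22 times the highest spleen library (2.57, SE 0.29, adjusted p = 2.60e-08). Bhlhe40, a transcription factor of resident and cytokine-producing T cells, was at 2091, 1043, 974, 1533 and 1758 CPM in the liver libraries against 138, 66.8, 84.0, 126 and 74.1 CPM in the spleen libraries. Rgs1, which dampens chemokine receptor signals, was at 1538, 772, 619.5, 860.4 and 927 CPM in the liver libraries against 128, 116, 124, 125 and 111 CPM in the spleen libraries. For both genes liver library 1 was highest and all liver values were above all spleen values (Bhlhe40 3.92, SE 0.32, adjusted p = 4.99e-11; Rgs1 2.96, SE 0.34, adjusted p = 3.84e-08). Prdm1, the gene of the repressor BLIMP-1, was at 51.5 to 98.7 CPM in liver and 13.1 to 19.4 CPM in spleen (2.31, SE 0.19, adjusted p = 6.43e-11). Ahr, the aryl hydrocarbon receptor, was at 36.9 to 48.5 CPM in liver and 9.44 to 12 CPM in spleen (1.95, SE 0.12, adjusted p = 4.12e-13), and Litaf, an endosomal protein, at 80.2 to 122 CPM in liver and 15.4 to 23.4 CPM in spleen (2.25, SE 0.18, adjusted p = 2.51e-11). Hic1, a transcriptional repressor of intestinal T cells, rose too (1.84, SE 0.22, adjusted p = 7.44e-08).

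Retention integrins were low in level even where they rose. Itga1, the collagen-binding CD49a chain, was at 70.2, 11.2, 8.42, 14.3 and 13.9 CPM in liver and 2.30, 1.34, 2.04, 0.909 and 1.14 CPM in spleen. Liver library 1 held 4.91 times the CPM of the next liver library, and the gene remained called without it (2.94, adjusted p = 2.39e-06, against 3.92 with all libraries). Itgae, the CD103 chain of epithelial residency, was at 5.66 to 15.99 CPM in liver and 2.42 to 6.70 CPM in spleen, with overlap (1.05, SE 0.27, adjusted p = 0.00192). Zfp683, the gene of HOBIT, was at 4.25 to 27.5 CPM in liver and 1.48 to 8.28 CPM in spleen (1.59, SE 0.48, adjusted p = 0.00713), a call lost without liver library 1 (1.10, adjusted p = 0.0556). Cd69, an early activation protein that blocks S1PR1 at the cell surface, was at 542, 426, 388, 445 and 399.6 CPM across liver libraries 1 to 5 and 274, 382, 309, 275 and 335 CPM across the spleen libraries. Its values did not overlap, but it was not called (0.48, SE 0.20, adjusted p = 0.0501). With the compared libraries only it passed (adjusted p = 0.00129), as in several other settings, among them the fit without liver library 3 (adjusted p = 0.0477) or spleen library 2 (0.0357). P2rx7, a receptor for extracellular ATP, was not called either (-0.02, SE 0.24, adjusted p = 0.962); liver library 1, at 140.4 CPM, was its highest, and without that library P2rx7 was called lower (-0.49, adjusted p = 0.0185).

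**Figure D2:**
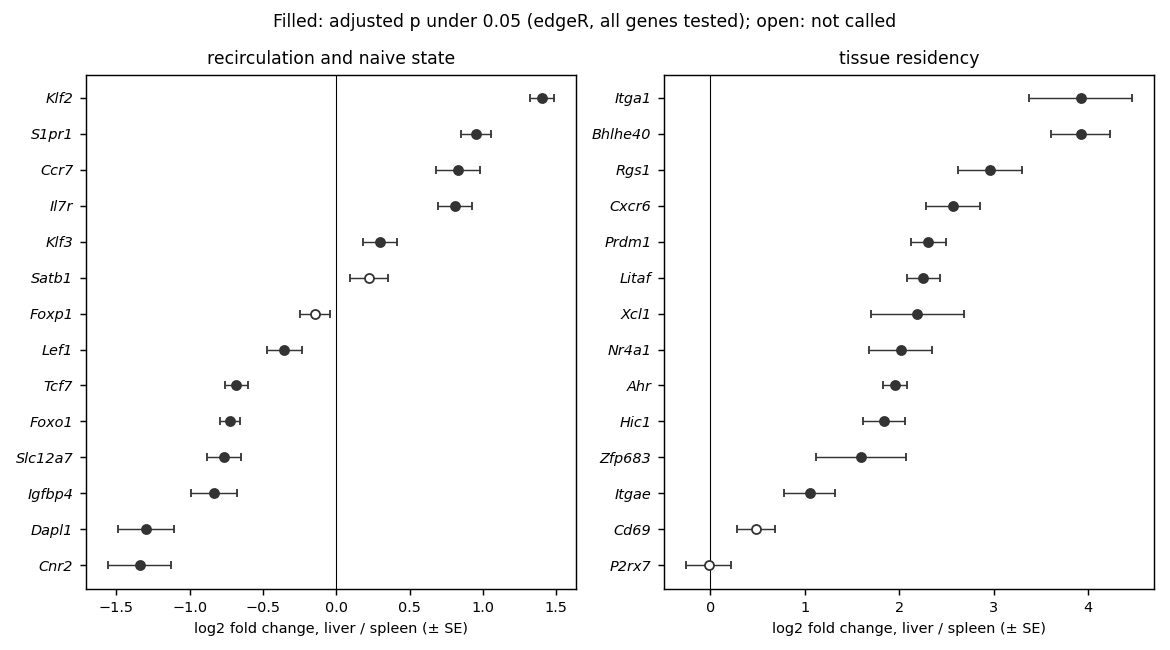
Log2 fold change, liver over spleen, of the members of the recirculation and naive state list (left) and of the residency list (right) that the text names, in Tconv after CCl4, with approximate standard errors as bars. Filled points passed an adjusted p of 0.05. Klf2 and S1pr1 lie to the right while Tcf7 and Foxo1 lie to the left of 0, and no residency gene shown lies to the left with a filled point.

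The 250 bases before the start of Klf2 and Cxcr6 are shown because Klf2 had the largest rise of the recirculation list and Cxcr6 is a chemokine receptor of liver-resident T cells. They are RefSeq sequences of GRCm38.p6, read 5′ to 3′ on the gene's strand, for Klf2 at chr8:72318812-72319061 (plus strand) and for Cxcr6 at chr9:123806227-123806476 (plus strand). Capitals mark matches, on either strand, to CCACCC (KLF type) in Klf2 and to TGTGGT (RUNX type) and GAAAGT (BLIMP-1 and IRF type) in Cxcr6.
Klf2: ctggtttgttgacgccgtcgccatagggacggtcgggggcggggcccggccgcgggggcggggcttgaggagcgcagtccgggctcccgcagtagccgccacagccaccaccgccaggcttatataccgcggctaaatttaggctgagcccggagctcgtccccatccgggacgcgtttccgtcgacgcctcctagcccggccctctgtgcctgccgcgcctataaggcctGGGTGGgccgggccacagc
Cxcr6: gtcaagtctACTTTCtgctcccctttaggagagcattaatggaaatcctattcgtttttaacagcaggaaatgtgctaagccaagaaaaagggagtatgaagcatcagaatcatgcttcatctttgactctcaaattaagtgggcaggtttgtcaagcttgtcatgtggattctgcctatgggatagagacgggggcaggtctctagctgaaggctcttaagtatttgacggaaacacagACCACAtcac
Klf2 held CCACCC 19 bases before its start, and Cxcr6 held TGTGGT 10 bases and GAAAGT 241 bases before its start. In the same windows CCACCC was present in 30.6% of 27025 genes with an entry, TGTGGT in 15.9%, GAAAGT in 14.0% and GGTGTGA (T-box type) in 3.84%. Of the 10 residency genes that were higher and had an entry, 4 held CCACCC, 3 TGTGGT, 3 GAAAGT and 1 GGTGTGA. Of the 9 recirculation genes that were lower and had an entry, 4 held CCACCC, 0 TGTGGT, 2 GAAAGT and 1 GGTGTGA, and of the 3 that were higher, 2 held CCACCC and none the other motifs. A match is a description of letters and not a measured binding site.

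Chemokine receptors of inflamed tissue were higher in liver Tconv and the receptor of B cell follicles was lower. Of 16 tested, 12 were higher, 1 was lower and 3 were not called (median 1.60). Ccr8, a receptor of type 2 and skin-homing T cells, was at 138, 79.3, 55.8, 75.0 and 95.8 CPM in the liver libraries against 8.74, 4.91, 7.54, 7.05 and 4.19 CPM in the spleen libraries. Ccr2, which follows CCL2 to inflamed tissue, was at 229, 102, 104, 149 and 182 CPM in the liver libraries against 34.2, 17.7, 19.3, 21.3 and 22.0 CPM in the spleen libraries. Neither overlapped between tissues, and their log2 fold changes were 3.78, SE 0.22, adjusted p = 4.00e-14 for Ccr8 and 2.74, SE 0.21, adjusted p = 1.63e-11 for Ccr2. Cxcr3, the Th1-associated receptor of interferon-induced chemokines, was at 234 to 364 CPM in liver and 108 to 177 CPM in spleen (1.22, SE 0.17, adjusted p = 6.64e-07), and Cxcr4, the receptor of CXCL12, at 124 to 170.0 CPM in liver and 20.4 to 41.0 CPM in spleen (2.26, SE 0.21, adjusted p = 7.45e-10). Ccr4 (1.75, SE 0.16, adjusted p = 7.57e-10) and Ccrl2, an atypical receptor that presents chemerin (2.23, SE 0.19, adjusted p = 1.09e-10), rose too. The exception was Cxcr5, which brings T cells into follicles: it was at 12.5, 9.70, 12.6, 21.3 and 26.4 CPM in liver and 52.9, 42.3, 46.7, 67.4 and 40.0 CPM in spleen, all liver values being lower (-1.60, SE 0.22, adjusted p = 6.25e-07). Ccr9, the gut-homing receptor, was not called, at 10.1 to 14.9 CPM in liver and 7.59 to 11.7 CPM in spleen (0.36, SE 0.17, adjusted p = 0.0849), and neither was Ccr3 (0.86, SE 0.42, adjusted p = 0.0918), which was called higher without spleen library 3 (1.37, adjusted p = 0.0117).

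Among 22 integrin and adhesion genes, 10 were higher, 4 were lower and 8 were not called (median 0.32). Itgb1, the shared beta chain of the VLA integrins, was at 999 to 1573 CPM in liver and 490.5 to 691 CPM in spleen (1.15, SE 0.13, adjusted p = 1.53e-08). Cd44, the hyaluronan receptor of activated and memory T cells, was at 169 to 307 CPM in liver and 79.2 to 117 CPM in spleen (1.27, SE 0.13, adjusted p = 7.49e-09), and Itgav, the alpha chain of TGF-beta activating integrins, rose (1.07, SE 0.13, adjusted p = 1.25e-07). Itga4 (0.52, SE 0.10, adjusted p = 1.10e-04), Icam1 (0.96, SE 0.16, adjusted p = 1.30e-05) and Cd226, an activating receptor (0.97, SE 0.17, adjusted p = 4.02e-05), were higher as well. Itgb7, the beta chain of gut-homing integrins, was lower at 1333 to 1548 CPM in liver and 1666 to 1948 CPM in spleen (-0.34, SE 0.08, adjusted p = 6.33e-04), as was Icam2 (-0.57, SE 0.10, adjusted p = 1.80e-05). The chains of LFA-1 were not called: Itgal was at 592 to 757 CPM in liver and 669.8 to 938 CPM in spleen (adjusted p = 0.136) and Itgb2 at 790.5 to 983 CPM in liver and 910.2 to 1161 CPM in spleen (adjusted p = 0.229).

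Of 11 chemokines and T cell attractants tested, 10 were higher and 1 was not called (median 2.60). Ccl5, a product of effector and memory T cells, was at 307, 496, 136, 354 and 599.8 CPM across liver libraries 1 to 5 and 86.0, 28.7, 25.7, 62.3 and 52.9 CPM across the spleen libraries. Liver library 3 was lowest of the liver set and still above all spleen libraries (2.89, SE 0.32, adjusted p = 1.85e-08). Cxcl10, a ligand of CXCR3, was at 14.0 to 34.6 CPM in liver and 4.46 to 10.1 CPM in spleen (1.90, SE 0.29, adjusted p = 3.24e-06), and Cxcl16, the ligand of CXCR6, at 2.46 to 6.48 CPM in liver and 0.162 to 0.962 CPM in spleen (2.67, SE 0.33, adjusted p = 1.43e-07). Xcl1, which attracts cross-presenting dendritic cells, rose (2.191, SE 0.49, adjusted p = 4.99e-04), and Cxcl3 did so at levels of 0.682 to 1.43 CPM in liver and 0.0364 to 0.115 CPM in spleen (3.95, SE 0.44, adjusted p = 1.98e-08). Ccl20, the ligand of CCR6, was called higher at 0.159 to 0.876 CPM in liver and 0 to 0.109 CPM in spleen (3.51, SE 0.82, adjusted p = 8.72e-04). Ccl1 was not called (1.18, SE 0.71, adjusted p = 0.173).

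Costimulatory genes included some with wide gaps between the tissues. In the activation and costimulation list 15 of 23 members were higher, 2 lower and 6 not called (median 0.75). Icos, the inducible costimulator of activated T cells, was at 903, 675, 761, 768 and 834 CPM in the liver libraries against 111, 86.7, 110.0, 117 and 94.9 CPM in the spleen libraries. The lowest liver value was 5.76 times the highest spleen value (2.92, SE 0.09, adjusted p = 1.80e-20). Cd28, the main costimulatory receptor, was at 859, 778, 818, 870.3 and 816 CPM in the liver libraries against 295, 298, 304, 292 and 296 CPM in the spleen libraries, with a narrow spread in both tissues (1.48, SE 0.06, adjusted p = 8.64e-18). Tnfrsf4, the gene of OX40, was at 195 to 255 CPM in liver and 30.4 to 52.8 CPM in spleen (2.50, SE 0.12, adjusted p = 1.27e-15). Tnfsf11, the gene of RANKL, was at 85.2 to 126 CPM in liver and 16.3 to 28.1 CPM in spleen (2.21, SE 0.14, adjusted p = 2.83e-13). Nr4a1, a gene induced by T cell receptor signals and counted in the residency list, was at 2554, 1662, 1727, 2086 and 1914 CPM in liver and 427, 515, 454, 526 and 541 CPM in spleen. Its values were apart by 3.07 times (2.01, SE 0.33, adjusted p = 1.14e-05), and Nr4a3 rose with it (2.74, SE 0.30, adjusted p = 1.92e-08). Sh2d2a, a T cell adaptor protein counted among the SLAM receptor genes, was also higher (1.38, SE 0.06, adjusted p = 3.49e-16). Cd27, a costimulatory receptor kept by naive and memory cells, was lower at 101 to 191 CPM in liver and 222 to 338 CPM in spleen (-0.77, SE 0.12, adjusted p = 3.81e-06), and so was Myc, a growth regulator (-0.72, SE 0.08, adjusted p = 5.96e-09). Cd6 and Cd5, which tune receptor signals, were not called, at 952 to 1142 CPM in liver and 1086 to 1223 CPM in spleen and at 475 to 587 CPM in liver and 535 to 591 CPM in spleen (adjusted p = 0.166 and 0.54).

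**Figure D3:**
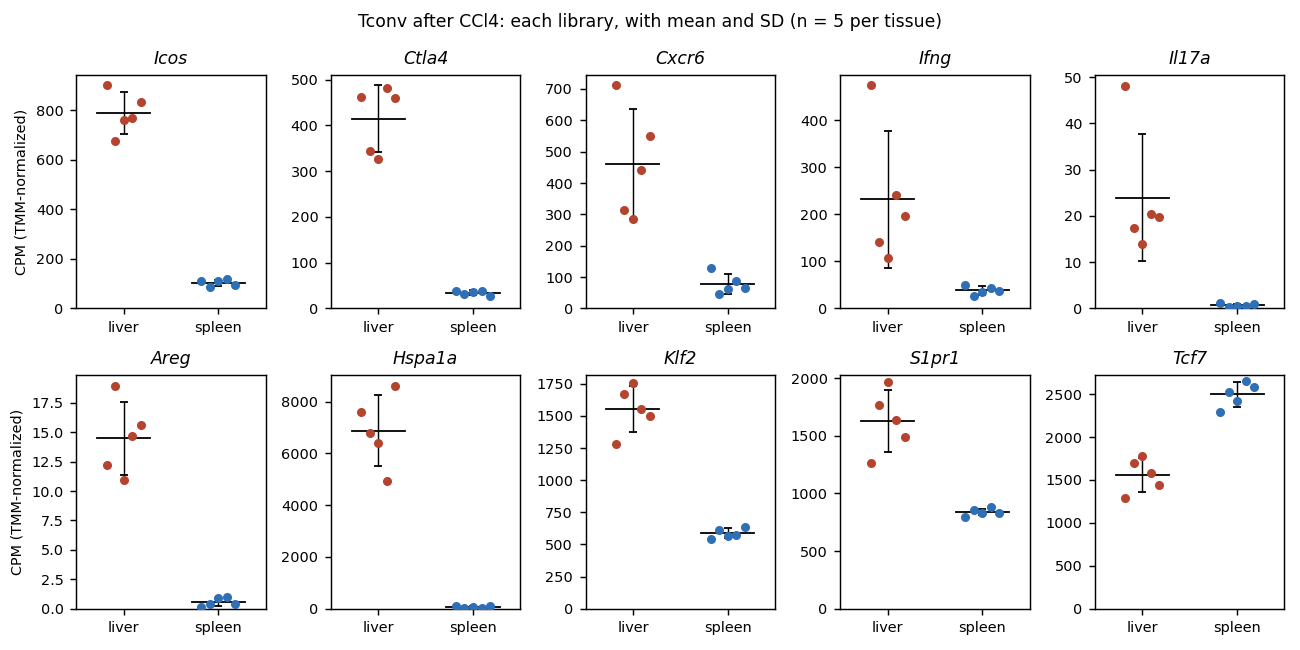
Values of 10 genes in every library of liver (red) and spleen (blue) Tconv after CCl4, in TMM-normalized CPM on linear axes starting at 0, with the mean and SD of 5 libraries in black. No gene of the 10 overlaps between the tissues. Tcf7 is lower in liver and the other 9 are higher.

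Coinhibitory receptors were mostly higher. Of 17 tested, 10 were higher, 2 lower and 5 not called (median 0.75). Ctla4, which competes with CD28 for its ligands, was at 462, 344, 328, 481 and 460.5 CPM across liver libraries 1 to 5 and 37.9, 31.2, 36.7, 38.6 and 26.3 CPM across the spleen libraries. The tissues were apart by a fold change of 12.2 (3.60, SE 0.16, adjusted p = 1.02e-16). Tigit was at 36.0 to 69.9 CPM in liver and 5.41 to 17.3 CPM in spleen (2.54, SE 0.23, adjusted p = 3.29e-10), and Entpd1, the ectonucleotidase CD39, at 22.3 to 45.8 CPM in liver and 6.01 to 12.7 CPM in spleen (2.05, SE 0.23, adjusted p = 2.26e-08). Pdcd1, the gene of PD-1, ranged from 123 CPM in liver library 1 to 362 CPM in liver library 5. Spleen library 4 was its highest spleen value, at 123 CPM, just under the lowest liver value, and the other spleen libraries lay well below (1.54, SE 0.25, adjusted p = 1.03e-05). Klrg1, a receptor of terminal effector cells, was at 23.2, 7.65, 4.42, 12.9 and 11.6 CPM in the liver libraries against 5.48, 1.13, 0.523, 1.24 and 1.17 CPM in the spleen libraries, with spleen library 1 above liver library 3 (2.65, SE 0.46, adjusted p = 2.65e-05); without that spleen library the difference was larger (3.57, adjusted p = 4.26e-07). Vsir, the gene of VISTA, which keeps naive T cells quiescent, was lower at 313 to 384 CPM in liver and 455 to 592 CPM in spleen (-0.53, SE 0.07, adjusted p = 9.27e-07), and Cd200 was lower too (-0.78, SE 0.12, adjusted p = 2.41e-06). Btla (0.01, SE 0.10, adjusted p = 0.94) and Cd96 (-0.07, SE 0.08, adjusted p = 0.471), both abundant in naive T cells, were not called. Cd96 is counted among the adhesion genes.

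Effector programmes of several helper lineages were higher together. In the Th1 and cytotoxic list, 18 of 19 members were higher and 1 was not called (median 2.13). Ifng, the type 1 effector cytokine, was at 474, 140.1, 108, 239.9 and 195 CPM in the liver libraries against 50.6, 25.7, 35.5, 44.4 and 36.3 CPM in the spleen libraries. Liver library 1 was highest by 1.98 times, and the lowest liver value was 2.13 times the highest spleen value (2.59, SE 0.47, adjusted p = 4.88e-05). Tbx21, the Th1 regulator T-bet, was at 283, 124, 109.5, 238 and 188 CPM in liver and 59.5, 33.7, 33.5, 46.3 and 42.2 CPM in spleen (2.13, SE 0.28, adjusted p = 2.94e-07). Gzmb, the granzyme of cytotoxic granules, was at 198, 82.5, 31.8, 99.6 and 159 CPM across liver libraries 1 to 5 and 7.11, 2.38, 1.25, 6.40 and 3.64 CPM across the spleen libraries. Its liver values spread 6.22-fold and none reached down to spleen (4.81, SE 0.45, adjusted p = 7.37e-10). Fasl, a death ligand, was at 158 to 298 CPM in liver and 19.7 to 30.3 CPM in spleen (3.13, SE 0.21, adjusted p = 1.19e-12), and Hopx, a regulator of Th1 survival, at 101 to 156 CPM in liver and 37.0 to 45.9 CPM in spleen (1.71, SE 0.14, adjusted p = 4.24e-11). Nkg7, a granule protein (2.51, SE 0.29, adjusted p = 4.12e-08), and Il18rap (1.65, SE 0.19, adjusted p = 3.12e-08) were higher as well. So were Ccl5 and Il2rb, a receptor chain for interleukins 2 and 15 (1.51, SE 0.16, adjusted p = 1.31e-08), which are counted in other lists. Prf1, the gene of perforin, was the member not called, at 37.3 to 63.0 CPM in liver and 62.0 to 77.8 CPM in spleen (-0.37, SE 0.16, adjusted p = 0.0597), though it was called lower without liver library 2 (adjusted p = 0.0418) or 3 (0.0454).

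In the Th17 list all 11 members tested were higher (median 3.00). Il17a, its signature cytokine, was at 48.2, 17.4, 13.9, 20.4 and 19.7 CPM in the liver libraries against 1.12, 0.346, 0.622, 0.509 and 0.910 CPM in the spleen libraries, with the highest spleen library at 8.04% of the lowest liver library (5.08, SE 0.56, adjusted p = 1.71e-08). Rora, a Th17 regulator also used by other tissue lymphocytes, was at 540.4, 294, 325, 355 and 407 CPM in the liver libraries against 61.6, 36.8, 42.0, 45.4 and 43.3 CPM in the spleen libraries (3.07, SE 0.16, adjusted p = 2.94e-15). Ltb4r1, the leukotriene B4 receptor, rose (3.11, SE 0.32, adjusted p = 4.04e-09), and Maf, a regulator of interleukin 10 and 17, rose (1.43, SE 0.14, adjusted p = 1.51e-09). Il22, a cytokine that acts on epithelia, was at 3.22 to 5.73 CPM in liver and 0.156 to 1.04 CPM in spleen (3.00, SE 0.76, adjusted p = 0.00204). Gamma delta T cells, which can also make interleukin 17, are not in the gate. Of 7 of their markers tested, 5 were higher in liver, Il17a among them. The list summed to 51.7 to 101 CPM in liver and 14.6 to 20.6 CPM in spleen. The gamma chain constant genes Tcrg-C2 and Tcrg-C4 were higher in liver without overlap. Their lowest liver values were 2.51 and 2.13 times their highest spleen values. The delta chain constant gene Trdc was at 4.71 to 10.1 CPM in liver and 8.84 to 10.3 CPM in spleen and not called (-0.40, SE 0.19, adjusted p = 0.0848), or called lower in liver without liver library 3 (adjusted p = 0.0223). The part of such cells in the Th17 values was not tested.

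Type 2 cytokine genes were higher, at low levels. Of 8 tested, 6 were higher, 0 lower and 2 not called (median 1.83). Il1rl1, the receptor ST2 for the alarmin interleukin 33, was at 14.3, 14.97, 12.2, 7.23 and 17.2 CPM in liver and 3.66, 1.08, 2.52, 2.07 and 1.07 CPM in spleen (2.67, SE 0.29, adjusted p = 1.38e-08). Il5, the eosinophil cytokine, was at 1.62 to 3.69 CPM in liver and 0 to 0.0534 CPM in spleen, and Il13 was at 0.0352 to 0.403 CPM in liver and at 0 in all 5 spleen libraries. Against a floor of 3 counts over the 5 spleen libraries (0.0156 CPM), Il13 was at least 14.7-fold higher. Gata3, the Th2 regulator that all CD4 T cells express, was at 177 to 198 CPM in liver and 134 to 181 CPM in spleen, higher by a small margin with overlap (0.28, SE 0.10, adjusted p = 0.0234). Il4 (1.56, SE 0.54, adjusted p = 0.0173) and Pparg, a lipid-sensing factor of Th2 cells (2.10, SE 0.44, adjusted p = 2.58e-04), were higher. The Gata3 call was lost without spleen library 5 (adjusted p = 0.0799) and that of Il4 without liver library 1 (0.95, adjusted p = 0.146), in which it was 9.83 CPM. Il17rb, the interleukin 25 receptor chain, was not called (-0.67, SE 0.31, adjusted p = 0.0688), but was called lower without liver library 3 (adjusted p = 0.0203) or spleen library 5 (0.0272).

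Follicular helper genes were divided, as were all genes tested (23.6% called higher and 24.9% lower). Of 13 tested, 3 were higher, 5 lower and 5 not called (median -0.22, or 0.03 with only genes averaging 5 CPM or more). Ascl2, which starts the follicular programme, was at 0.130, 0, 0.0318, 0.163 and 0 CPM across liver libraries 1 to 5 and 1.68, 2.17, 3.56, 4.14 and 2.39 CPM across the spleen libraries, with every liver library far below every spleen library (-5.36, SE 0.91, adjusted p = 1.90e-05); the difference was -6.00, adjusted p = 3.45e-05 without liver library 4. Pou2af1 (-1.30, SE 0.28, adjusted p = 2.89e-04), Il6ra, the interleukin 6 receptor (-0.82, SE 0.10, adjusted p = 5.82e-08), and Cxcr5, given above, were lower. Bcl6 was higher (0.96, SE 0.18, adjusted p = 5.03e-05), and so were Icos and Pdcd1, both given above. Il21, the follicular cytokine, was at 8.30, 2.98, 5.47, 27.2 and 8.51 CPM in the liver libraries against 12, 8.05, 14.96, 49.5 and 12.6 CPM in the spleen libraries, highest in the fourth library of each tissue, and was not called (-0.89, SE 0.56, adjusted p = 0.194), or was called lower without liver library 4 (-1.62, adjusted p = 0.0192).

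Regulators of effector and memory cells were mostly higher: 16 of 19 rose, 1 fell and 2 were not called (median 1.14). Nr4a2, an orphan nuclear receptor induced by receptor signals, is not in these counts but in those of the activation and costimulation list. It was at 194, 167, 116, 188 and 213 CPM in the liver libraries against 4.65, 4.15, 6.57, 7.71 and 4.00 CPM in the spleen libraries. Its lowest liver value was 15.02 times its highest spleen value (5.03, SE 0.25, adjusted p = 1.80e-15). Klf6 was at 1510.1 to 1998 CPM in liver and 445 to 524 CPM in spleen (1.75, SE 0.18, adjusted p = 4.01e-09), Nfil3 at 99.7 to 152 CPM in liver and 15.6 to 29.1 CPM in spleen (2.39, SE 0.24, adjusted p = 2.78e-09) and Runx2 at 25.7 to 56.1 CPM in liver and 3.15 to 9.72 CPM in spleen (2.72, SE 0.23, adjusted p = 1.60e-10). Id3, which restrains effector differentiation, was the fall (-0.50, SE 0.12, adjusted p = 0.00148). Tox, a factor of chronically stimulated T cells, was not called (0.17, SE 0.16, adjusted p = 0.399), or was called higher without spleen library 4 (0.38, adjusted p = 0.0355).

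Among genes of tissue repair and growth factors, 12 of 23 tested were higher, 0 lower and 11 not called (median 1.57). Areg, the gene of amphiregulin, an epidermal growth factor receptor ligand that supports tissue repair, was at 12.2, 18.9, 10.9, 14.7 and 15.7 CPM in liver and 0.134, 0.438, 0.896, 1.02 and 0.364 CPM in spleen. The lowest liver value was 10.7 times the highest spleen value (4.71, SE 0.42, adjusted p = 3.30e-10). Treg after CCl4 averaged 132 ± 24.7 CPM in liver (SD, n = 5), against 14.5 ± 3.12 CPM in liver Tconv, and the tissue difference of the cell types was not called as different (adjusted p = 0.402). Fgl2, a fibrinogen-like protein secreted by T cells, was at 140.4, 53.4, 28.03, 47.8 and 63.1 CPM across liver libraries 1 to 5 and 8.20, 1.15, 2.54, 4.47 and 2.58 CPM across the spleen libraries (4.15, SE 0.42, adjusted p = 4.41e-09). Il10, the anti-inflammatory cytokine, which is counted in the coinhibition list, was at 7.52, 22.6, 7.37, 70.4 and 24.9 CPM in the liver libraries against 2.30, 1.31, 0.498, 11.1 and 1.46 CPM in the spleen libraries. Library 4 was highest in both tissues and spleen library 4 lay above liver libraries 1 and 3 (3.09, SE 0.60, adjusted p = 9.63e-05). The difference was 2.32, adjusted p = 9.15e-04 without liver library 4 and 4.26, adjusted p = 1.09e-06 without spleen library 4. Penk, which encodes enkephalin peptides, was at 16.02, 58.5, 19.7, 53.7 and 29.8 CPM in the liver libraries against 15.5, 10.04, 15.7, 25.3 and 11.4 CPM in the spleen libraries, also with overlap (1.20, SE 0.30, adjusted p = 0.00153). Lrrc32, which presents latent TGF-beta (2.88, SE 0.28, adjusted p = 2.63e-09), Lif (1.57, SE 0.37, adjusted p = 9.27e-04) and Vegfa (2.29, SE 0.58, adjusted p = 0.0018) were higher. Tgfb1, the dominant TGF-beta of T cells, was at 94.8 to 114 CPM in liver and 81.2 to 123 CPM in spleen and Osm, oncostatin M, at 26.3 to 34.0 CPM in liver and 27.1 to 32.2 CPM in spleen; neither was called (adjusted p = 0.252 and 0.817). Tgfb1 was called higher without spleen library 4 (0.24, adjusted p = 0.0164).

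Stress and immediate early genes formed 2 patterns. Of 22 members tested, 13 were higher, 0 lower and 9 not called (median 1.26). Heat shock genes and some activator protein 1 (AP-1) relatives were far higher in liver. For these and all other genes, any difference in how cells were taken from the organs goes with tissue. It cannot be told apart from a difference between the cells in the animal, and its part was not tested. Hspa1a, an inducible HSP70 chaperone, was at 7606, 6775, 6406, 4946 and 8601 CPM in liver and 92.0, 44.9, 49.6, 14.0 and 121 CPM in spleen (6.74, SE 0.47, adjusted p = 2.13e-12). Hspa1b was at 10689, 9479, 8881, 7362 and 11789.7 CPM across liver libraries 1 to 5 and 356, 223, 199, 51.3 and 360.1 CPM across the spleen libraries (5.34, SE 0.44, adjusted p = 7.64e-11). The 2 genes are near-identical copies, so how reads were divided between them is uncertain; their windows before the start were identical at 247 of 250 bases. Fosl2, an AP-1 subunit, was at 295, 264, 297, 302 and 284 CPM in the liver libraries against 9.54, 10.01, 9.46, 17.7 and 10.9 CPM in the spleen libraries (4.65, SE 0.22, adjusted p = 5.12e-16). Atf3, a stress-induced factor, was at 44.4 to 74.8 CPM in liver and 0.697 to 1.78 CPM in spleen (5.56, SE 0.45, adjusted p = 6.42e-11), and Btg2, an antiproliferative gene, at 1163 to 1688 CPM in liver and 406 to 479 CPM in spleen (1.62, SE 0.11, adjusted p = 1.73e-12). Hsp90aa1 rose as well (1.85, SE 0.14, adjusted p = 2.81e-11).

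By contrast the classical immediate early genes were high in both tissues. Fos was at 1089, 844, 870.2, 908 and 919 CPM in the liver libraries against 725, 735, 711, 821 and 892 CPM in the spleen libraries, with overlap and no call (0.25, SE 0.68, adjusted p = 0.784). Junb was at 5727 to 6842 CPM in liver and 3967 to 5922 CPM in spleen (0.29, SE 0.39, adjusted p = 0.561) and Jun at 1079 to 1298 CPM in liver and 890.4 to 1077 CPM in spleen (0.32, SE 0.26, adjusted p = 0.323). With only the compared libraries in the fit, each of the 3 was called higher in liver (adjusted p = 0.00824 for Fos, 0.0077 for Junb and 6.35e-04 for Jun). The tests over all libraries take their spread from all groups, including 3 spleen Tconv control libraries in which Fos was at 804, 26.4 and 19.4 CPM. Dusp1, a phosphatase that ends MAP kinase signals, was at 2187, 1951, 1767, 2207 and 2106 CPM in liver and 765, 869, 828, 850.1 and 912 CPM in spleen, without overlap, and narrowly missed the threshold (1.27, SE 0.54, adjusted p = 0.0525). It was called higher with the compared libraries only (adjusted p = 3.73e-08), with limma-voom (0.0146), with a replicate block (0.0133), with DESeq2 size factors (0.0446), with length offsets (0.0465) and with only genes averaging 5 CPM or more (0.0244). It was also called without spleen control libraries 2 and 3, a setting added after the data were seen (0.00891).

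The windows before Hspa1a and Areg are shown since both genes were among the large rises, with 2 motifs chosen after the values were seen. Both are RefSeq sequences of GRCm38.p6 read 5′ to 3′ on the gene's strand, Hspa1a at chr17:34972157-34972406 (minus strand) and Areg at chr5:91139349-91139598 (plus strand). Capitals mark GAANNTTC, the core of a heat shock element, in Hspa1a and TGACGTCA, the cAMP response element, in Areg.
Hspa1a: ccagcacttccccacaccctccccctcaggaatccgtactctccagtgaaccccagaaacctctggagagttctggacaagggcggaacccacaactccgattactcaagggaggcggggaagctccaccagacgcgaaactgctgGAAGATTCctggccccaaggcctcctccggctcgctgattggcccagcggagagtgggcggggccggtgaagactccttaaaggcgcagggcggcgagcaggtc
Areg: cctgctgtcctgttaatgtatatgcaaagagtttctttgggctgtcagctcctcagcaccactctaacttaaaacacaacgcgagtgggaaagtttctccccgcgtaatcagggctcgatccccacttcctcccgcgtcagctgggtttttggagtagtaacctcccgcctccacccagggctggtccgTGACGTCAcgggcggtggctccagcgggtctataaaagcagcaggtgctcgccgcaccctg
The first lay 104 bases before the start of Hspa1a, and the same match was found for Hspa1b. The second lay 61 bases before the start of Areg. GAANNTTC was present in the windows of 7.73% of all genes and in 4 of the 11 stress genes that were higher and had an entry: Fosl2, Hspa1a, Hspa1b and Dnaja1, with the HSP70 copies sharing sequence. TGACGTCA was present in 1.77% of all genes and in 1 of those 11, Btg2.

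Of 18 NF-kB and survival genes, 14 were higher, 0 lower and 4 not called (median 0.89). Tnfaip3, which encodes the feedback inhibitor A20, was at 4382, 3607, 3726, 3964 and 4347 CPM across liver libraries 1 to 5 and 1059.6, 1204, 1025, 938 and 924 CPM across the spleen libraries (1.96, SE 0.40, adjusted p = 1.99e-04). The survival genes Bcl2a1d (2.81, SE 0.14, adjusted p = 2.51e-15) and Bcl2a1b (2.10, SE 0.11, adjusted p = 1.16e-14) belong to a family of near-identical copies, so their separate values are uncertain. Rel, an NF-kB subunit of activated T cells, was at 113 to 155 CPM in liver and 31.6 to 39.8 CPM in spleen (1.88, SE 0.14, adjusted p = 6.86e-12), and Birc3, an apoptosis inhibitor, at 238 to 279.8 CPM in liver and 101 to 126 CPM in spleen (1.12, SE 0.07, adjusted p = 7.70e-13). Bcl2l11, the gene of the cell death protein BIM, was higher too (1.51, SE 0.14, adjusted p = 1.20e-09). Mcl1 (0.11, SE 0.08, adjusted p = 0.288) and Nfkbia (0.34, SE 0.19, adjusted p = 0.139), both abundant, were not called, though both were called higher with only genes averaging 5 CPM or more (adjusted p = 0.0103 and 0.0263).

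Proliferation genes were higher in liver. Of 24 cell cycle genes, 22 were higher, 0 lower and 2 not called (median 1.56). Top2a, a topoisomerase of dividing cells, was at 98.1, 78.5, 73.5, 104 and 108 CPM in the liver libraries against 43.0, 20.8, 25.4, 32.3 and 16.9 CPM in the spleen libraries (1.74, SE 0.16, adjusted p = 7.37e-10). Mki67, the gene of Ki-67, was at 58.4, 39.0, 29.4, 46.5 and 53.9 CPM in the liver libraries against 20.1, 6.74, 11.2, 18.1 and 11.5 CPM in the spleen libraries (1.75, SE 0.26, adjusted p = 2.18e-06). Ccna2, cyclin A2, was at 30.5 to 51.6 CPM in liver and 7.71 to 14.6 CPM in spleen (2.02, SE 0.19, adjusted p = 7.09e-10), Ccne2 at 14.3 to 16.6 CPM in liver and 1.74 to 4.01 CPM in spleen (2.39, SE 0.22, adjusted p = 4.78e-10) and Birc5, survivin, at 26.2 to 43.6 CPM in liver and 6.07 to 14.1 CPM in spleen (1.77, SE 0.18, adjusted p = 4.62e-09). No liver value of these 5 genes reached down to a spleen value. The replication licensing gene Mcm2 was not called, at 128 to 219.7 CPM in liver and 147 to 176 CPM in spleen (0.02, SE 0.11, adjusted p = 0.903), nor was Ccne1 (0.18, SE 0.14, adjusted p = 0.285).

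Interferon response genes leaned to the spleen. Of 25 tested, 3 were higher, 13 lower and 9 not called (median -0.38). Usp18, which ends type I interferon signals, was at 27.8, 37.7, 35.5, 37.7 and 31.0 CPM in liver and 71.8, 78.5, 75.9, 62.4 and 78.7 CPM in spleen (-1.11, SE 0.14, adjusted p = 1.06e-07). The interferon gamma induced GTPases Irgm1 (-1.06, SE 0.12, adjusted p = 1.82e-08) and Ifi47 (-0.96, SE 0.11, adjusted p = 2.01e-08), and Stat2 (-0.83, SE 0.09, adjusted p = 1.82e-08), were lower too. Mx1 was an exception, at 11.7 to 23.9 CPM in liver and 6.18 to 8.89 CPM in spleen (1.25, SE 0.18, adjusted p = 1.10e-06), and so were Isg15 (0.92, SE 0.17, adjusted p = 5.05e-05) and Rsad2 (0.65, SE 0.21, adjusted p = 0.0102). Igtp (-0.11, SE 0.10, adjusted p = 0.387) and Gbp4 (0.06, SE 0.10, adjusted p = 0.665) were not called. In the same libraries Ifngr1, a chain of the interferon gamma receptor counted in the Th1 and cytotoxic list, was at 1659.9, 1669.7, 1672, 1541 and 1798 CPM across liver libraries 1 to 5 and 288, 266, 206, 213 and 225 CPM across the spleen libraries (2.80, SE 0.08, adjusted p = 1.45e-21).

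Metabolic genes divided by pathway. Of 20 respiratory chain genes, 0 were higher, 12 lower and 8 not called (median -0.25), or 1 higher and 8 lower when only genes averaging 5 CPM or more were scaled. Sdhb, a subunit of complex II, was at 125 to 137 CPM in liver and 152 to 193 CPM in spleen (-0.44, SE 0.06, adjusted p = 2.05e-06), and Uqcrc2, of complex III, at 118 to 138 CPM in liver and 166 to 206 CPM in spleen (-0.47, SE 0.08, adjusted p = 1.78e-05). The falls were small. Atp5b, the most abundant member not called, was at 1175 to 1393 CPM in liver and 1217 to 1460.4 CPM in spleen (-0.06, SE 0.06, adjusted p = 0.403). Of 21 glycolysis and hypoxia genes, 11 were higher, 3 lower and 7 not called (median 0.18). Hif1a, the oxygen-regulated factor, was at 626, 613, 630.1, 558 and 672 CPM in the liver libraries against 214, 224, 241, 311 and 224 CPM in the spleen libraries (1.35, SE 0.10, adjusted p = 4.74e-12). Slc16a3, a lactate exporter, was at 14.2 to 19.7 CPM in liver and 1.94 to 3.82 CPM in spleen (2.85, SE 0.21, adjusted p = 5.32e-12), and Hk2, the inducible hexokinase, at 11.4 to 26.2 CPM in liver and 0.346 to 2.83 CPM in spleen (3.59, SE 0.42, adjusted p = 4.74e-08). Pdk1, a kinase that inhibits pyruvate dehydrogenase, was lower (-0.99, SE 0.13, adjusted p = 3.49e-07), and Pkm (-0.16, SE 0.07, adjusted p = 0.0762) and Ldha (-0.05, SE 0.07, adjusted p = 0.541) were not called. Pkm was called lower without liver library 5 (adjusted p = 0.0416).

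Lipid genes were mixed. Of 23 fatty acid genes, 11 were higher, 8 lower and 4 not called (median 0.27). Dgat1, which makes triglyceride, was at 549.8, 296, 380.0, 319 and 368 CPM in the liver libraries against 32.2, 29.9, 29.7, 29.8 and 30.3 CPM in the spleen libraries. The lowest liver library was 9.17 times the highest spleen library (3.65, SE 0.13, adjusted p = 2.20e-19). Plin2, a lipid droplet coat protein, was higher at 40.5 to 60.8 CPM in liver and 10.98 to 18.5 CPM in spleen (1.82, SE 0.16, adjusted p = 2.22e-10), as were Fabp5 (1.18, SE 0.15, adjusted p = 2.39e-07) and Elovl6 (1.63, SE 0.25, adjusted p = 5.33e-06). Cpt2, for mitochondrial fatty acid import, was lower (-1.25, SE 0.15, adjusted p = 1.30e-07), and so was Fasn, fatty acid synthase (-0.85, SE 0.12, adjusted p = 1.11e-06). Of 23 genes of cholesterol synthesis and uptake, 8 were higher, 10 lower and 5 not called (median -0.16), or 9 higher and 6 lower in that setting. Insig1, a sterol sensor, was higher (1.26, SE 0.10, adjusted p = 2.05e-11), with Stard4, a sterol carrier (1.22, SE 0.10, adjusted p = 1.18e-10), and Cyp51 (0.88, SE 0.12, adjusted p = 1.10e-06), while Mvd (-1.18, SE 0.12, adjusted p = 4.91e-09), Dhcr7 (-0.86, SE 0.08, adjusted p = 4.05e-10) and Fdps (-0.79, SE 0.10, adjusted p = 2.88e-07), 3 enzymes of the same route, were lower.

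In the purine, NAD and eicosanoid list 9 of 18 members were higher, 4 lower and 5 not called (median 0.81). Ptger2 and Ptger4, receptors of prostaglandin E2, were both higher, at 33.1 to 49.9 CPM in liver and 9.73 to 16.01 CPM in spleen (1.67, SE 0.14, adjusted p = 1.34e-10) and 192 to 355 CPM in liver and 113 to 132 CPM in spleen (0.91, SE 0.13, adjusted p = 1.03e-06). Nt5e, the adenosine-producing enzyme CD73, rose (0.75, SE 0.12, adjusted p = 4.35e-06), whereas Art2b, an ADP-ribosyltransferase, fell (-0.94, SE 0.13, adjusted p = 9.09e-07). Of 16 S100, annexin and galectin genes, 13 were higher, 0 lower and 3 not called (median 0.99). Lgals3, galectin 3, was at 54.5 to 109 CPM in liver and 9.96 to 20.4 CPM in spleen (2.76, SE 0.20, adjusted p = 5.65e-12), S100a4 at 116 to 191 CPM in liver and 32.1 to 60.0 CPM in spleen (1.92, SE 0.16, adjusted p = 1.36e-10) and Anxa2 at 197 to 319 CPM in liver and 62.6 to 109 CPM in spleen (1.67, SE 0.15, adjusted p = 6.74e-10). Of 10 SLAM receptor genes, 4 were higher, 1 lower and 5 not called (median 0.78). Slamf1 (1.87, SE 0.16, adjusted p = 1.78e-10) and Slamf7 (1.61, SE 0.31, adjusted p = 9.30e-05) were higher, Ly9 was lower (-0.36, SE 0.08, adjusted p = 6.11e-04), and Slamf6 was not called (-0.01, SE 0.11, adjusted p = 0.951).

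Among genes averaging 5 CPM or more over the 10 libraries, the largest rises were of genes that hepatocytes and fibroblasts make. The 12 largest among such called genes without overlap between the tissues were Rbp4, Col3a1, Pzp, Fga, Alb, Ahsg, Hp, Serpina3k, Apoa1, Hpx, Fgg and Fgb. They encode plasma proteins of hepatocytes and, for Col3a1, a fibroblast collagen. Genes near 0 in spleen reach that average through their liver values alone, so this ranking depends in part on the filter. Alb, albumin, was at 77.2, 123, 48.9, 50.1 and 39.4 CPM in liver and 0.454, 0, 0.249, 0 and 0.0260 CPM in spleen (8.79, SE 1.10, adjusted p = 1.55e-07), or 9.79, adjusted p = 7.87e-07 without spleen library 1. Rbp4, the carrier of retinol, was at 9.37, 30.7, 5.53, 5.02 and 3.62 CPM in liver and at 0 in every spleen library, at least 696-fold higher against the same floor, or at least 378-fold without liver library 2. All 20 hepatocyte markers were higher (median 8.24, or 7.96 with the 2 genes at 0 in spleen set to their bound), and the list summed to 441, 854, 305, 357 and 254 CPM in liver libraries 1 to 5, against 19.5 to 36.9 CPM in spleen. Of 12 stellate cell and fibroblast markers, 7 were higher and 0 lower, with sums of 26.4 to 73.8 CPM in liver and 3.96 to 6.46 CPM in spleen. The part of hepatocyte or fibroblast RNA in the other liver rises was not tested.

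**Figure D4:**
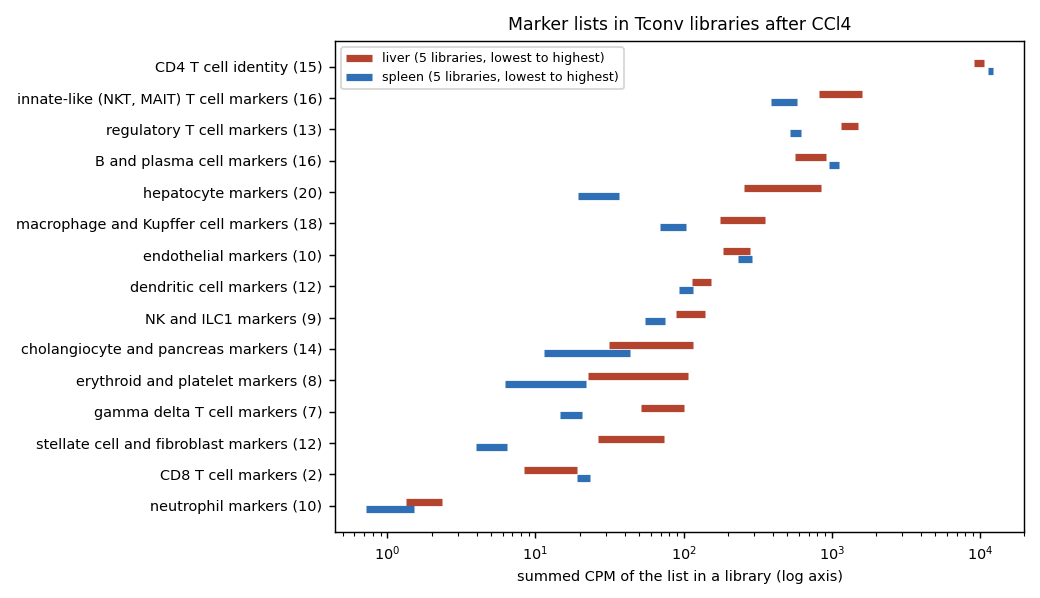
Summed CPM of each list of cell type markers in liver (red) and spleen (blue) Tconv after CCl4, on a log axis. Each bar runs from the lowest to the highest of 5 libraries, with the number of members tested in brackets. Hepatocyte markers sum to 254 to 854 CPM in liver against 19.5 to 36.9 CPM in spleen.

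Markers of other lymphocytes were also unequal. Of 16 innate-like T cell markers, 7 were higher, 1 lower and 8 not called, with sums of 819 to 1609 CPM in liver and 390 to 581 CPM in spleen; Il2rb and Slamf1, which activated CD4 T cells express too, made up most of these sums. Zbtb16, the gene of PLZF that defines innate-like T cells, was at 3.47, 2.94, 6.96, 3.19 and 2.36 CPM across liver libraries 1 to 5 and 1.71, 3.92, 2.22, 2.11 and 3.02 CPM across the spleen libraries, and was not called (0.54, SE 0.54, adjusted p = 0.427). Of 9 NK and ILC1 markers, 6 were higher and 0 lower, with sums of 88.7 to 139 CPM in liver and 54.8 to 75.0 CPM in spleen. Cd8a and Cd8b1 gave 0 higher and 1 lower. Regulatory T cell markers gave 9 higher, 3 lower and 1 not called of 13, led by Ctla4, Tnfrsf18 and Tnfrsf4, which activated Tconv also express, while Foxp3 was the lower of the 2 tissues in liver, as given above. The part of innate-like or NK cells in the Th1 and cytotoxic values was not tested.

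Macrophage markers were called in both directions, as were all genes tested (23.6% higher and 24.9% lower). Their median changed sign with only genes averaging 5 CPM or more, as given below. Among neutrophil, B cell and dendritic cell markers, more were called higher than lower. Of 18 macrophage and Kupffer cell markers, 5 were higher and 6 lower; the sums of 178 to 354 CPM in liver and 69.4 to 104 CPM in spleen were led by Ccr2 and Ly6c2, which T cells also express. The Kupffer cell gene Clec4f was at 0 to 0.843 CPM in liver and at 0 in every spleen library, and C1qa, a complement gene of macrophages, was lower in liver (-2.25, SE 0.48, adjusted p = 3.26e-04). Of 10 neutrophil markers, 1 was higher, with sums of at most 2.32 CPM. Of 16 B and plasma cell markers, 4 were higher and 1 lower; that 1 was Ighm, at 267 to 515 CPM in liver and 772 to 955 CPM in spleen (-0.97, SE 0.11, adjusted p = 5.20e-08). Of 12 dendritic cell markers, 6 were higher and 1 lower (median 0.97), of 10 endothelial markers 6 and 1, of 14 cholangiocyte and pancreas markers 3 and 0, and of 8 erythroid and platelet markers 3 and 0.

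The 12 largest falls among called genes that averaged 5 CPM or more and did not overlap between the tissues were led by Slc40a1. It reached that average, taken over the 10 libraries, through its spleen values alone. Slc40a1, the iron exporter ferroportin, was at 0.357, 0.899, 0.699, 1.96 and 0.0703 CPM in the liver libraries against 7.59, 15.5, 15.2, 7.60 and 6.68 CPM in the spleen libraries (-3.71, SE 0.57, adjusted p = 4.39e-06), or -4.35, adjusted p = 1.53e-06 without liver library 4. Macrophages of the spleen express it too, and their part in this fall was not tested; the macrophage gene C1qa was lower in liver, as given above. Slc16a5, a monocarboxylate transporter, was at 5.54, 11.7, 12.6, 11.7 and 6.86 CPM in the liver libraries against 114, 96.4, 93.4, 113 and 113 CPM in the spleen libraries. The highest liver value was 13.5% of the lowest spleen value (-3.45, SE 0.28, adjusted p = 4.99e-11). Acvrl1, a receptor of the TGF-beta family, was at 10.99 to 19.7 CPM in liver and 67.2 to 87.1 CPM in spleen (-2.34, SE 0.24, adjusted p = 4.60e-09). Dtx1, a Notch target and regulator, was at 139.9, 174, 162, 166 and 154 CPM in liver and 533, 519, 526, 602 and 514 CPM in spleen (-1.76, SE 0.12, adjusted p = 8.55e-13). The other genes of this set were Mrm2, Ampd3, Mettl27, Slc25a29, Cxcr5, Gorasp1, Rasal1 and Tgtp1, with log2 fold changes from -1.92 to -1.54.

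The tissue difference after CCl4 was then set against that of Tconv from control mice. In controls 6233 genes were called (36.3%), 3054 higher and 3179 lower in liver. Called in both, in the same direction, were 5149 genes, which is 61.9% of the calls after CCl4 and 82.6% of those in controls, and 6 genes were called in opposite directions. The difference between the tissue differences was called for 15 genes (0.0874% of those tested), 5 more positive and 10 more negative after CCl4, and 1740 genes had an unadjusted p under 0.05. With 3 control libraries a group, of which spleen libraries 2 and 3 were low in Fos, this count depended on single libraries: it was 0 without spleen control library 3 (1307 genes at an unadjusted p under 0.05), 2 without library 2 and 220 without library 1, and 3 to 9 without any 1 of the 3 liver control libraries, liver libraries 4 and 5 or spleen libraries 2, 3 and 4. DESeq2 called 160 genes and limma-voom 21 on all libraries.

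Histone genes were among those with a more positive difference after CCl4. Hist1h1e, a linker histone gene, was at 23.7, 20.1, 23.0, 25.3 and 34.5 CPM across liver libraries 1 to 5 and 7.05, 4.52, 4.56, 5.05 and 7.78 CPM across the spleen libraries after CCl4, and the tissue difference was 2.13 after CCl4 and 0.56 in controls (adjusted p of the difference = 0.0181). Hist1h4n went the same way, at 2.05 and 0.52 (adjusted p = 0.0181). Genes of this cluster are close copies, so their separate levels are uncertain. On the other side, Ccrl2 had a tissue difference of 2.23 after CCl4 and 3.91 in controls (adjusted p = 0.0276). Zc3hav1, an antiviral RNA-binding protein, was at 1.41 and 2.14 (adjusted p = 0.0347), and Tmem64 at 2.31 and 3.14 (adjusted p = 0.0372). Srsf6, a splicing factor, was lower in liver after CCl4 (-0.73) and near level in controls (0.06; adjusted p = 0.0276). Isca1, for iron-sulfur cluster assembly, was at 0.68 and 1.25 (adjusted p = 0.0276). Ywhaz, a 14-3-3 protein, was at 0.03 and 0.44 (adjusted p = 0.0181). For Klf2, Cxcr6, Icos and Areg the difference was not called: the tissue differences in controls were 1.16, 2.71, 3.00 and 5.21, with adjusted p of the difference from 0.549 to 0.968, which does not show that they were equal.

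The tissue difference of Tconv was also set against that of Treg of the same treatment. In Treg after CCl4 9231 genes were called (53.8%). Genes called in the same direction in both cell types numbered 5842, or 70.2% of the Tconv calls and 63.3% of the Treg calls, and 221 were called in opposite directions. The difference of the differences was called for 2487 genes (14.5%), 1560 more positive and 927 more negative in Tconv. Of recirculation genes, 13 of 18 had a more positive tissue difference in Tconv and 0 a more negative one, against 9.09% and 5.4% of all genes tested, with a list median of -0.52 in Tconv and -1.24 in Treg. Tcf7 averaged 1557 ± 200.3 CPM in liver Tconv and 2498 ± 142 CPM in spleen Tconv (SD, n = 5), and 77.0 ± 8.01 and 476 ± 33.5 CPM in liver and spleen Treg. Its tissue difference was -0.68 in Tconv and -2.63 in Treg (adjusted p of the difference = 3.07e-13). Klf2 was at 1.40 in Tconv and 0.27 in Treg (adjusted p = 3.35e-08), and S1pr1 at 0.96 and -0.16 (adjusted p = 2.33e-06).

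Among the genes of smallest adjusted p, several differed less between the tissues in Tconv than in Treg. Ms4a4b, a membrane protein of naive and Th1 cells, differed by -0.18 in Tconv and -2.19 in Treg (adjusted p of the difference = 3.07e-13), and Cd96 by -0.07 and -1.79 (adjusted p = 1.71e-12). Evl, an actin regulator, was at -0.73 and -2.98 (adjusted p = 2.20e-14), and Lta, lymphotoxin, at -0.44 and -3.16 (adjusted p = 4.10e-13). Pcyt1a, for phosphatidylcholine synthesis, was at -0.01 in Tconv and 3.90 in Treg (adjusted p = 1.75e-13), and Tent5a at 0.31 and 3.36 (adjusted p = 3.07e-13). Arid5a, an RNA-binding protein that stabilises cytokine transcripts, was higher in liver Tconv (1.90) and stood at -0.55 in Treg (adjusted p = 1.48e-12). The effector genes Fasl, Icos and Ctla4 had the larger rise in Tconv: Fasl was at 3.13 and 0.40 (adjusted p = 9.08e-08), Icos at 2.92 and 1.62 (adjusted p = 5.08e-09) and Ctla4 at 3.60 and 2.10 (adjusted p = 4.59e-06). Cxcr6 had the smaller one, 2.57 in Tconv and 3.93 in Treg (adjusted p = 0.019). For Fosl2 (adjusted p = 0.956) and Hspa1a (adjusted p = 0.521) the difference between cell types was not called.

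**Figure D5:**
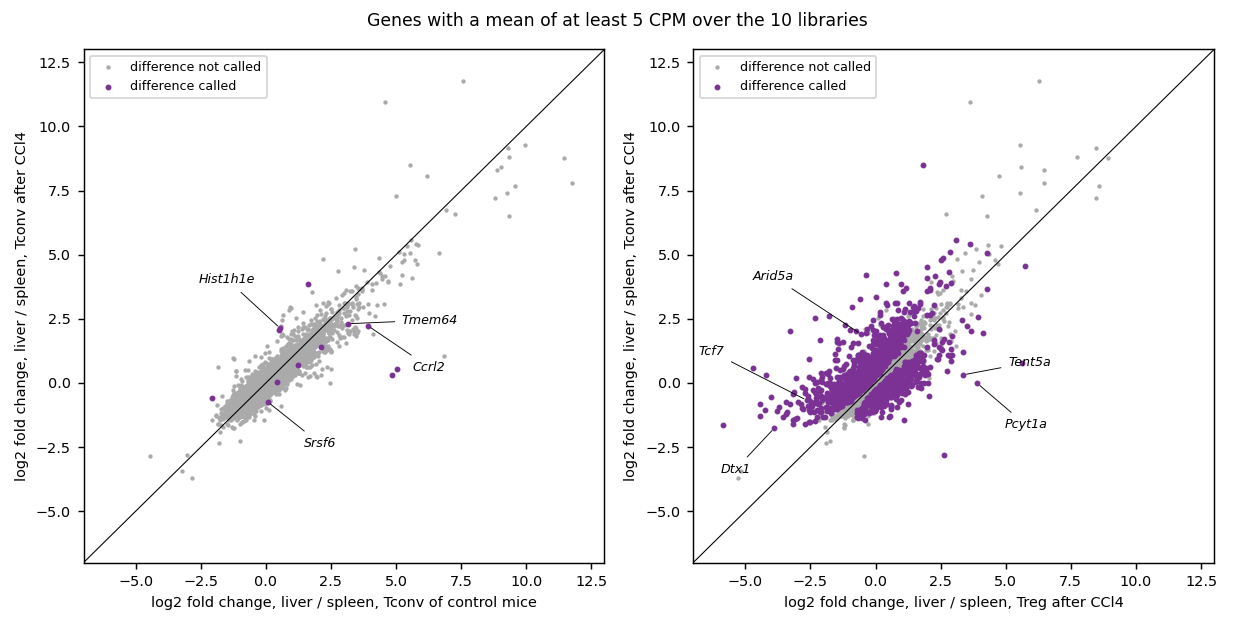
Log2 fold change of each gene, liver over spleen, in Tconv after CCl4 (vertical) against the same in Tconv of control mice (left, horizontal) and in Treg after CCl4 (right, horizontal), for genes averaging 5 CPM or more. Purple points have a called difference between the 2 fold changes, and the line marks equality. Hist1h1e and Ccrl2 are among the few purple points on the left; Tcf7 and Pcyt1a are among the many on the right.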

How the data were processed

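RNA of sorted T cells was sequenced after low-input cDNA synthesis (Clontech Ultra Low v4, Nextera XT), per the labels' protocols. The authors deposited one table per library with estimated counts and TPM per transcript, made with kallisto 0.44.0 after bcl2fastq 2.19 on GRCm38.p6, per the submitters' processing notes and the file headers; those notes also name DESeq2. The annotation release and strandedness were not given in the sources used here.

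Estimated counts were summed per gene through GENCODE M21 transcript names (98.5% of transcripts matched, 35968 genes; unmatched transcripts held 0.684 to 0.806% of the counts of the 10 libraries and stayed out) and rounded. Genes passing filterByExpr were tested with edgeR 4.0.16 (R 4.3.3; TMM, quasi-likelihood, 8 groups, all 32 libraries) at a Benjamini-Hochberg adjusted p under 0.05 over all 17159. Standard errors are the log2 fold change over the square root of F, and are approximate. In data simulated for the liver and spleen comparison over 17159 genes, 95.5% of 200 genes changed 2-fold were recovered, with 6 unchanged genes called. The 200 averaged 5 CPM or more, with as many rises as falls, and all other genes were level between the tissues. In the real data 48.5% of genes were called, so the simulation cannot speak for errors of scaling or for genes of lower level. The alternatives were DESeq2 size factors, DESeq2 1.42.0, limma-voom 3.58.1, 2 filters, the compared libraries only, length offsets, a replicate block, leaving out each library and ratios of mean TPM.

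Named genes were, per list, the 6 called members of smallest adjusted p and the 2 most abundant members not called, with the 3 most abundant of each marker list, 22 fixed genes, the 12 largest rises and falls averaging 5 CPM or more without overlap between the tissues (predicted genes, pseudogenes, ribosomal, mitochondrial and receptor segment genes left out) and the 8 genes of smallest adjusted p in each difference of differences. Further list members, the genes of the closing observations and the motifs GAANNTTC and TGACGTCA were picked with their values in view. Some genes that the rule names are not reported here. The comparison and the lists were chosen with earlier results of these data known.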

Additional observations from a re-analysis of the deposited data

Results flagged for a closer look

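For each gene named in the text, a library was picked out when it lay far from the other 4 of its group, by Dixon's test at its 95% critical value for 5 samples (0.71). Of 482 groups of 5 libraries checked, 46 held such a library, and chance alone gives about 1 in 20 groups. Liver library 1 accounted for 16 of them and spleen library 4 for 10, while liver library 5 and spleen library 2 had none.

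Liver library 1 lay far above the rest of its group for 15 genes and far below for 1. It held 189.9 CPM of Cd226, 59.2 CPM of Hic1, 48.2 CPM of Il17a, 9.83 CPM of Il4, 70.2 CPM of Itga1, 29.0 CPM of Ltb4r1, 140.4 CPM of P2rx7 and 68.8 CPM of Slamf7. The same library was highest for Gbp4 (342 CPM), Hsp90aa1 (1713 CPM), Klf6 (1998 CPM), Lilr4b (1384 CPM), Nfkbia (1204 CPM), Pmaip1 (232 CPM) and Ptger4 (355 CPM). It was far the lowest for Cd27, at 101 CPM.

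Spleen library 4 lay far above the rest of its group for 9 genes and far below for 1: Pdcd1 at 123 CPM, Il21 at 49.5 CPM, Il10 at 11.1 CPM and Tigit at 17.3 CPM. Further high values of that library were Dtx1 (602 CPM), Fosl2 (17.7 CPM), Hif1a (311 CPM), Slc16a3 (3.82 CPM) and Tgfb1 (123 CPM). C1qa was far the lowest there, at 1.02 CPM.

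Spleen library 1 was high for Ccr2 (34.2 CPM), Dgat1 (32.2 CPM), Hopx (45.9 CPM), Klrg1 (5.48 CPM), Lilr4b (33.6 CPM), S100a4 (60.0 CPM) and Uqcrc2 (206 CPM) and low for Tent5a (27.3 CPM), spleen library 3 was low for Ptpn6 (487 CPM), and spleen library 5 was high for Id3 (78.3 CPM). Liver library 2 was high for Cxcl16 (6.48 CPM), Itgae (15.99 CPM) and the hepatocyte genes Rbp4 (30.7 CPM) and Serpina3k (37.8 CPM). Liver library 3 was high for Zbtb16, at 6.96 CPM. Liver library 4 was high for Ccr3 (2.83 CPM), Il10 (70.4 CPM), Il21 (27.2 CPM), Slc25a29 (8.18 CPM) and Ywhaz (1437 CPM).

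Some tissue differences themselves differed between conditions. Liver minus spleen after CCl4 exceeded that in controls by 1.57 for Hist1h1e and 1.53 for Hist1h4n on the log2 scale. The gap was -1.68 for Ccrl2, -0.83 for Tmem64, -0.80 for Srsf6, -0.72 for Zc3hav1, -0.57 for Isca1 and -0.41 for Ywhaz, negative values being lower after CCl4. After CCl4, liver minus spleen in Tconv exceeded that in Treg by 2.73 for Fasl, 2.72 for Lta, 2.45 for Arid5a, 2.25 for Evl and 2.01 for Ms4a4b, and, of the genes described in the closing observations, by 5.29 for Tcrg-C4, 4.86 for Tcrg-C2 and 4.39 for Trgv2. It did so by 1.95 for Tcf7, 1.72 for Cd96, 1.504 for Ctla4, 1.30 for Icos, 1.13 for Klf2 and 1.12 for S1pr1. The same difference was 1.61 for Tmem64, 0.77 for Hist1h4n and 0.45 for Zc3hav1, and it was -3.91 for Pcyt1a, -3.04 for Tent5a and -1.36 for Cxcr6. Each of these came from a difference of differences in edgeR's quasi-likelihood test with a Benjamini-Hochberg adjusted p under 0.05. The calls against controls depended on single libraries: 15 genes were called with all libraries and 0 without spleen control library 3.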

How the results depend on the processing

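Counts of genes higher and lower in liver Tconv stayed within 1.5 times of the main values, except that 2774 genes were called lower when only the 9871 genes averaging 5 CPM or more were tested, with fewer genes in the test. The 15 genes whose tissue difference differed from controls became 160 with DESeq2, 23 with length offsets, 1 with the compared libraries only and 4 without spleen controls 2 and 3, a setting added after the data were seen; the cause was not tested. Leaving out 1 library gave 0 to 220. Leaving out 1 library gave 3710 to 3940 genes higher, 3990 to 4119 lower and 2241 to 2619 that differed between Tconv and Treg. Replicate numbers do not pair the samples by any label. Same-numbered liver and spleen libraries correlated at 0.05 to 0.33 in their deviations from the group means, and 4 of 5 liver libraries correlated best with their own number, a hint from the data and not the design. A replicate block gave 3970 genes higher and 4336 lower, and 58 that differed from controls (5 with the compared libraries only). No called direction was reversed for any of the 241 genes named, of which 211 kept their call under every alternative run and 30 lost or gained one in at least 1. Of 1560 counts over lists, 55 moved by more than 1.5 times, and of 779 list medians 28 moved by more than the spread between libraries. The median of the macrophage list turned from -1.06 to 1.95 with only genes averaging 5 CPM or more, and that of the neutrophil list from 0.86 to -0.06 without liver library 5. Depth limits genes below a few counts: 3 counts over the 5 spleen libraries are 0.0156 CPM.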

Other observations

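Among abundant genes that no list held, those described next were chosen after their values were seen. Crem, a repressor of the cyclic AMP response, was at 709, 609, 626, 689 and 654 CPM in the liver libraries against 17.6, 21.8, 17.0, 19.2 and 22.1 CPM in the spleen libraries (5.07, SE 0.14, adjusted p = 1.35e-21). Ramp3, a partner chain of the adrenomedullin receptor, was at 285 to 442 CPM in liver and 13.4 to 19.7 CPM in spleen (4.57, SE 0.17, adjusted p = 1.01e-18), and Vps37b, a subunit of the endosomal sorting machinery, at 3591 to 5383 CPM in liver and 247 to 300.4 CPM in spleen (4.06, SE 0.12, adjusted p = 7.34e-21). None of the 3 overlapped between the tissues. Odc1, the rate-limiting enzyme of polyamine synthesis, was higher in liver at 685 to 1064 CPM in liver and 93.2 to 119.8 CPM in spleen (3.10, SE 0.15, adjusted p = 5.19e-16), whereas Srm, the next enzyme of the route, was lower at 26.9 to 37.6 CPM in liver and 66.5 to 82.2 CPM in spleen (-1.26, SE 0.12, adjusted p = 8.38e-10). Lilr4b and Lilrb4a, close copies that encode receptors of the leukocyte immunoglobulin-like family, were higher at 394 to 1384 CPM in liver and 9.81 to 33.6 CPM in spleen (5.41, SE 0.43, adjusted p = 3.29e-11) and 163 to 536 CPM in liver and 3.64 to 16.9 CPM in spleen (5.10, SE 0.39, adjusted p = 1.48e-11), and reads may be divided between them. Pmaip1, the gene of the cell death protein NOXA, was higher (3.90, SE 0.21, adjusted p = 5.92e-15), and Ptpn6, the phosphatase SHP-1 that dampens receptor signals, was lower at 198 to 240.3 CPM in liver and 487 to 561 CPM in spleen (-1.26, SE 0.09, adjusted p = 6.78e-12).

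Of genes averaging 5 CPM or more, 11 were called at least 2-fold higher in liver than in spleen Tconv, with a tissue difference in Treg of at least 2-fold the other way and a called difference between the cell types, and 2 were the reverse. T cell receptor gamma genes were among the 11. Tcrg-C2 was at 23.5, 18.5, 12.2, 15.9 and 12.4 CPM in the liver libraries against 4.86, 1.82, 3.09, 2.25 and 2.11 CPM in the spleen libraries in Tconv, with tissue differences of 2.54 in Tconv and -2.32 in Treg (adjusted p of the difference = 3.33e-06). Tcrg-C4 differed by 2.02 and -3.27 (adjusted p = 8.08e-09) and Trgv2 by 2.61 and -1.78 (adjusted p = 4.96e-06). These constant genes are close copies, and Trdc of the delta chain, given above, was not called.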
